A study of Homo sapiens with 4 samples.

Results

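Glycolysis and hypoxia-response genes were examined in 4 prostate cancer cell lines as 37 named genes among the 22637 genes of the count table. Members were taken by gene symbol, and each of the 37 had 1 entry. They comprised 20 genes of glycolysis (8 enzymes of its upper stage, 3 PFKFB regulators, 7 enzymes of its lower stage and 2 lactate dehydrogenases), 4 glucose and lactate transporters, 5 genes of the hypoxia-inducible factor (HIF) pathway and 8 HIF targets. RNA was sequenced from 1 library of each line. These were LNCaP, a castration-sensitive line, its olaparib-resistant derivative LN-OlapR, C4-2B, a castration-resistant line, and its olaparib-resistant derivative 2B-OlapR. LNCaP is the precursor of C4-2B, so the 2 backgrounds are related. Olaparib is an inhibitor of the DNA repair enzyme PARP, and the resistant lines had been grown in rising doses of it. The deposited description says that the lines were plated without a selecting drug before RNA was taken, while the study's methods describe the resistant lines as kept in medium with olaparib, and name no drug for the plating. The labels name no culture at low oxygen. Each resistant line is a single derived population without a replicate library, so a difference between a resistant and a parental line cannot be told apart from a difference between these particular cultures.

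Glycolysis breaks glucose down to pyruvate. Its upper stage spends ATP to make and split a doubly phosphorylated sugar, and its lower stage, from GAPDH onwards, yields ATP and NADH. TPI1, which stands before GAPDH, is counted with the lower stage here. Lactate dehydrogenase converts pyruvate to lactate, which monocarboxylate transporters carry out of the cell. HIF is a transcription factor whose alpha subunits, HIF1A and EPAS1, are hydroxylated by EGLN enzymes and then removed through VHL while oxygen is present. When oxygen is scarce the alpha subunits persist and switch on genes for glucose uptake, glycolysis, lactate export, blood vessel growth and the EGLN3 enzyme itself. Early prostate cancers are known to take up little glucose. RNA levels do not show how active an enzyme or a transcription factor is.

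The libraries held 19950537 to 26394267 estimated counts. Levels are given as normalized CPM, counts relative to the library size, with sizes scaled between libraries by the TMM method. A log2 ratio compares 2 libraries, and its 95% counting interval covers counting error only. The interval narrows as counts rise, so it clears 0 more readily for abundant genes. A gene was analyzed in a comparison when its mean there reached 1 normalized CPM, and a difference of at least 2-fold was called. The luminal prostate markers HOXB13, KRT8 and KRT18 were present in every library. KRT14, a basal marker, had 3 to 13 counts, and the neuroendocrine markers SYP and NCAM1 had 50 to 73 and 1 to 12 counts. The other 2 basal and 4 neuroendocrine markers had no entry. KLK3, which encodes prostate-specific antigen and is induced by androgen, had 1428 counts in LNCaP against 62636 in LN-OlapR, and 49347 in C4-2B against 38749 in 2B-OlapR. KLK2, a related androgen-induced gene, had 3399 counts in LNCaP against 17438 in LN-OlapR, and 5053 in C4-2B against 4828 in 2B-OlapR, with log2 ratios of 2.56 (LN pair) and -0.08 (2B pair). LNCaP was the lowest library for both genes, far apart in KLK3 and closer to the C4-2B lines in KLK2, where LN-OlapR was highest, and the part of this in the comparisons with LNCaP was not tested. In bulk RNA, fewer cells expressing a gene and less RNA per cell cannot be told apart.

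HIF binds the core letters ACGTG and GCGTG. Both were searched on both strands in the 250 bases before each start site in the RefSeq promoter table (GRCh38.p14), where the palindrome CACGTG counts as 2 overlapping matches. Of the 37 members, 31 had an entry (PFKFB2, SLC2A3, SLC16A1, VHL, VEGFA and HILPDA had none). At least 1 match lay before a start site in 25 of these 31 genes (80.6%), against 47.4% of the 27305 genes of the table. The members had 58 promoters among 31 genes, so more starts were searched per gene than in the table as a whole, where 35116 promoters belonged to 27305 genes. ACGTG alone was found for 17 of 31 members (54.8%), against 21.7% of all genes. The stretches below each show where these letters stand before 1 start site of a gene. HK2, SLC16A3 and PFKFB3 had clear differences between the lines, while PGK1 and GAPDH stayed within 1.5-fold in all 4 comparisons. For HK2, SLC16A3 and PFKFB3 the promoter table held further start sites, whose stretches are not shown. Every stretch lies inside the annotated span of its gene, so none is the sequence upstream of the whole gene. All lie on the plus strand outside annotated exons, and capitals mark the matches. The HK2 stretch, chr2:74834920-74835169, holds 6 matches. The SLC16A3 stretch, chr17:82228792-82229031, holds 2. The PFKFB3 stretch, chr10:6202694-6202865, holds 2 in 1 palindrome. The PGK1 stretch, chrX:78103998-78104173, holds 3, and the GAPDH stretch, chr12:6535142-6535263, holds 2 in 1 palindrome.
HK2: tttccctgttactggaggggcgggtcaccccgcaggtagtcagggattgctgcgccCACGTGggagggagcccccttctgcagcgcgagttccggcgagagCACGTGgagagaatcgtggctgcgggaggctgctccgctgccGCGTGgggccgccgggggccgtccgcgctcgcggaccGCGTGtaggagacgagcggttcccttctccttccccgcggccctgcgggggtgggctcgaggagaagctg
SLC16A3: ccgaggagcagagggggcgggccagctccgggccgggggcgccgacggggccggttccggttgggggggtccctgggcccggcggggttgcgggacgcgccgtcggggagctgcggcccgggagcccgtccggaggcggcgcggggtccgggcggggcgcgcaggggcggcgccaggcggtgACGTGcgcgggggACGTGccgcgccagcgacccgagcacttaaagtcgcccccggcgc
PFKFB3: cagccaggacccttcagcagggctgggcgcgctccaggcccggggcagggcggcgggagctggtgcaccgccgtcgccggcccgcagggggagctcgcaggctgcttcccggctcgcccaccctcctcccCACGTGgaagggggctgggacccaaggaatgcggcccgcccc
PGK1: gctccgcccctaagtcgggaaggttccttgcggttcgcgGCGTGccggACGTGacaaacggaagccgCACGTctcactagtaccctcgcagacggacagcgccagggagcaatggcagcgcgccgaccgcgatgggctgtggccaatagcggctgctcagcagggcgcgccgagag
GAPDH: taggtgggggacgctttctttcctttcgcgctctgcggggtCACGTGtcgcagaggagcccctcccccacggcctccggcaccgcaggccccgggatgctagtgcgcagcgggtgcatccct
Every stretch shown holds a match, so the stretches cannot show whether a match goes with a difference between lines. EGLN3 and LDHB, which differed in a resistant pair, and PGAM1 and PKM, which hardly differed in either, had 0 matches. A match is a description of the sequence, not evidence of binding.

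The first comparison asked how RNA of these genes differed between 2B-OlapR and C4-2B, the castration-resistant pair. Most HIF targets analyzed (6 of 7, of which HILPDA, VEGFA and ANKRD37 reached 2-fold), the lactate exporter SLC16A3 and the regulator PFKFB4 were lower in 2B-OlapR, while the abundant enzymes of the lower stage hardly differed. Of 35 members analyzed (ADM and SLC2A3 fell under the minimum), 28 were lower and 7 higher in 2B-OlapR, and the counting interval lay below 0 for 23 and above 0 for 5. Of all 15527 genes analyzed, 7766 were lower, and the interval lay below 0 for 4785 and above 0 for 4893. At least 2-fold lower were 6 members, PFKFB4, HILPDA, SLC16A3, EGLN3, VEGFA and ANKRD37, against 5.65% of the 15527 genes analyzed. At least 2-fold higher were 2 members, EPAS1 and ENO2, against 4.42% of all genes. At 1.5-fold, HK2, BHLHE40 and P4HA1 joined the lower members to make 9, against 13.5% of all genes, and the higher members stayed at 2, against 10.7%. The median log2 ratio of the members was -0.13, that of the 7 HIF targets analyzed -0.93, that of the 3 transporters analyzed -0.56 and that of the 20 glycolysis genes -0.11, while the median over all genes was -0.00.

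The second comparison asked the same of LN-OlapR and LNCaP, the castration-sensitive pair. Here most glycolytic enzymes and HIF targets were higher in the resistant line, while 4 of the 5 HIF pathway genes were lower. Of 36 members analyzed (all but ADM), 26 were higher and 10 lower in LN-OlapR, and the counting interval lay above 0 for 23 and below 0 for 7. Of all 15373 genes analyzed, 7625 were higher, and the interval lay above 0 for 4870 and below 0 for 4813. Scaled by total counts, 22 were higher and 14 lower. At least 2-fold higher were 3 members, SLC16A3, SLC2A3 and PFKP, against 4.64% of the 15373 genes analyzed. At least 2-fold lower was 1 member, ENO2, against 4.83% of all genes. LDHB and VEGFA were also at least 1.5-fold higher, which made 5 members against 10.6% of all genes, and EPAS1 at least 1.5-fold lower, which made 2 against 10.8%. The median log2 ratio of the members was 0.20, that of the 20 glycolysis genes 0.20, that of the 7 HIF targets analyzed 0.32 and that of the 5 HIF pathway genes -0.41, while the median over all genes was -0.00.

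**Figure D1:**
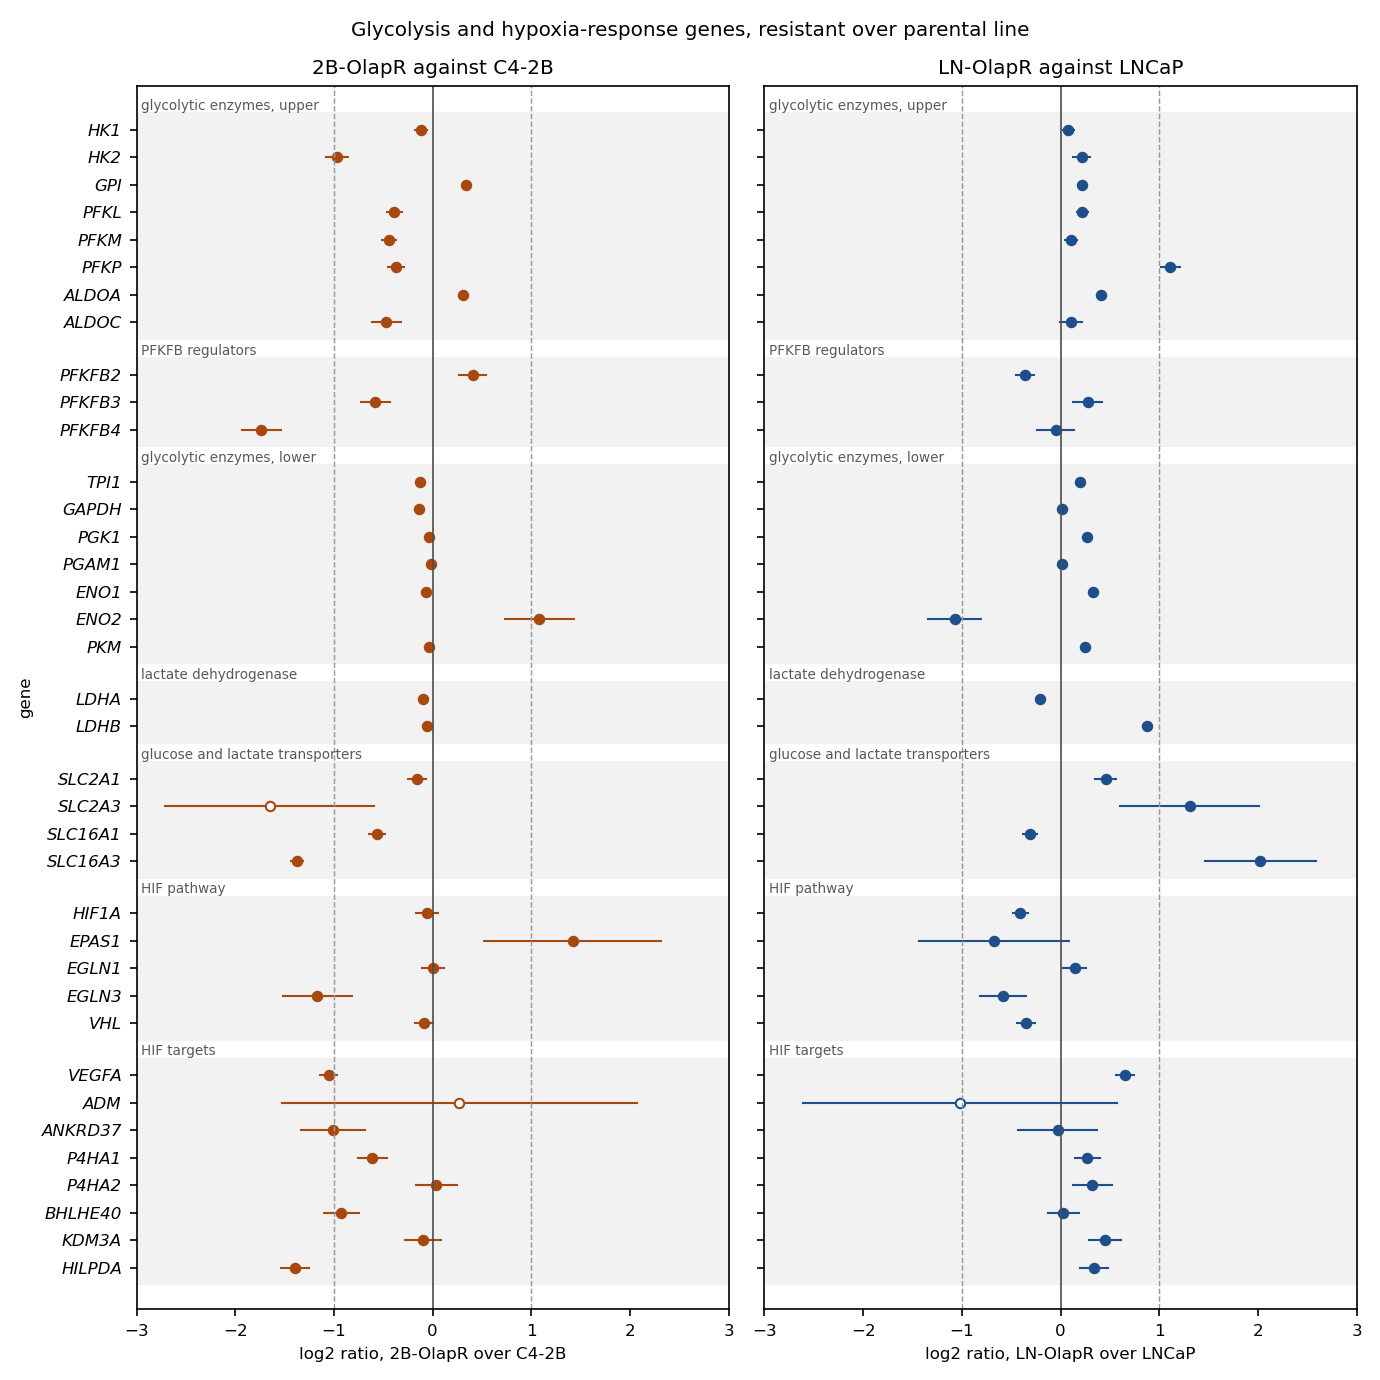
Log2 ratio (x axis) of each of the 37 genes (y axis, by group) in 2B-OlapR against C4-2B, left, and LN-OlapR against LNCaP, right. Points are ratios of 1 library to 1 library, lines are 95% counting intervals, dashed lines mark 2-fold and open points are genes under the minimum level. HIF targets lie mostly left of 0 in the 2B pair (6 of 7 analyzed lower) and mostly right of 0 in the LN pair (6 of 7 higher).

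Of the 35 members analyzed in both pairs, which share no library, 16 had an interval below 0 in the 2B pair and above 0 in the LN pair, as did 1255 (8.59%) of the 14602 genes analyzed in both. The reverse held for 2, PFKFB2 and ENO2, and for 7.66% of all genes. Both intervals lay above 0 for 2, GPI and ALDOA, against 14.1% of all genes, and below 0 for 3, LDHA, SLC16A1 and EGLN3, against 13.2%. For the other 12 at least 1 interval held 0, as for 56.4% of all genes. These counts are those with TMM scaling, and they depend on it where an interval ends near 0. In the 2B pair 31 of 35 members reached a mean of 10 normalized CPM, against 10015 of 15527 genes. Members were thus more abundant and had narrower intervals, so their shares and those of all genes are not like for like. GAPDH counts among the 16 at an LN ratio of 0.01, with an interval from 9.87e-05 to 0.03. The difference between the pairs has no test, because each pair is a single ratio.

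Among the upper enzymes, the hexokinases trap glucose by phosphorylating it. HK2, the inducible form, had 2119 counts in LNCaP against 2136 in LN-OlapR, and 2005 in C4-2B against 1036 in 2B-OlapR. 2B-OlapR was thus the lowest of the 4, with a log2 ratio of -0.97 to C4-2B (95% counting interval -1.08 to -0.86), and the LN pair differed by 0.22 (0.13 to 0.30). HK1, the form made in most cells, had 196, 207, 228 and 210 normalized CPM in LNCaP, LN-OlapR, C4-2B and 2B-OlapR. Its log2 ratios were -0.12 (2B pair) and 0.08 (LN pair). The HK1 difference in the LN pair is within the choice of scaling, since total counts gave -0.01. HK2 overlaps the antisense transcript HK2-DT, which had 54 to 157 counts.

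GPI, which turns glucose phosphate into fructose phosphate, was higher in both resistant lines. Its levels were 596 normalized CPM in LNCaP against 695 in LN-OlapR, and 824 in C4-2B against 1045 in 2B-OlapR, with log2 ratios of 0.34 (2B pair) and 0.22 (LN pair). ALDOA, the main aldolase, which splits the doubly phosphorylated sugar, was likewise higher in both, at 961 and 1279 normalized CPM in LNCaP and LN-OlapR and 1261 and 1558 in C4-2B and 2B-OlapR. Its log2 ratios were 0.30 (2B pair) and 0.41 (LN pair). GPI and ALDOA were the only upper enzymes higher in the resistant line of the 2B pair.

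The 3 phosphofructokinase subunits, which catalyze the committed step, were all lower in 2B-OlapR and all higher in LN-OlapR than in the parental line. PFKP, the platelet type, stood out in the LN pair, with 48.1 normalized CPM in LNCaP and 104 in LN-OlapR, against 126 in C4-2B and 97.1 in 2B-OlapR. LNCaP was the library set apart, and the log2 ratio in the LN pair was 1.11 (1.02 to 1.21), against -0.37 (-0.45 to -0.29) in the 2B pair. PFKL, the liver type, had log2 ratios of -0.39 (2B pair) and 0.22 (LN pair), and PFKM, the muscle type, -0.45 (2B pair) and 0.11 (LN pair). PFKM shares exon positions with the antisense gene SENP1, which had 419 to 756 counts. ALDOC, the minor aldolase, had log2 ratios of -0.47 (2B pair) and 0.11 (LN pair), the latter with an interval that held 0.

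PFKFB enzymes make and remove the sugar phosphate that activates phosphofructokinase, and the 3 members differed in different ways. PFKFB4 stood at 18.7 normalized CPM in LNCaP against 18.1 in LN-OlapR, and 43.6 in C4-2B against 13.1 in 2B-OlapR, so that C4-2B was high and the other lines lay close together. The log2 ratio of 2B-OlapR to C4-2B was -1.74 (-1.93 to -1.54), the lowest of the members analyzed, placing PFKFB4 at rank 297 from the lowest of 15527 genes. In the LN pair it was -0.05 (-0.23 to 0.14).

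PFKFB3, a form with strong kinase activity, had 27.0, 32.8, 44.7 and 29.9 normalized CPM in LNCaP, LN-OlapR, C4-2B and 2B-OlapR. It was again highest in C4-2B, with log2 ratios of -0.58 (2B pair) and 0.28 (LN pair). PFKFB2, the heart form and an androgen-induced gene in prostate cells, ran the other way at 85.3, 66.3, 36.3 and 48.2 normalized CPM in the same order. Its log2 ratios were 0.41 (2B pair) and -0.36 (LN pair), and its antisense neighbour YOD1 had 435 to 1185 counts.

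The lower stage was the most abundant group, with a median log2 ratio of -0.03 (2B pair) and 0.19 (LN pair). GAPDH, which oxidizes glyceraldehyde phosphate, stood at 3130 normalized CPM in LNCaP against 3161 in LN-OlapR, and 3655 in C4-2B against 3326 in 2B-OlapR, with log2 ratios of -0.14 (2B pair) and 0.01 (LN pair), the latter -0.07 with total counts. ENO1, the main enolase, had 1248, 1566, 1651 and 1574 normalized CPM, and log2 ratios of -0.07 (2B pair) and 0.33 (LN pair). TPI1, PGK1, PGAM1 and PKM, which with GAPDH and the enolases make up this group, lay between -0.13 and -0.02 in the 2B pair. In the LN pair they lay between 0.02 and 0.26. Pseudogene entries of TPI1 held 11.8% to 12.6% of the sum of gene and pseudogene counts, and those of GAPDH 2.31% to 3.30%.

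ENO2, the neuronal enolase and the scarce form here, was the exception in this stage. It had 374 counts in LNCaP against 154 in LN-OlapR, and 95 in C4-2B against 204 in 2B-OlapR, or 4.64 to 13.9 normalized CPM. The resistant line was the higher of the 2B pair, with a log2 ratio of 1.08 (0.73 to 1.43), and the lower of the LN pair, at -1.07 (-1.34 to -0.80). ENO2 is also used as a neuroendocrine marker, and SYP, another such marker, had log2 ratios of 0.22 (2B pair) and 0.24 (LN pair) with intervals that held 0.

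Lactate dehydrogenase differed in the LN pair and hardly in the 2B pair. LDHA, the form tied to lactate production, had 748 normalized CPM in LNCaP against 647 in LN-OlapR, and 844 in C4-2B against 789 in 2B-OlapR, with log2 ratios of -0.21 (LN pair) and -0.10 (2B pair). LDHB, the form of oxidative tissues, had 309.9, 567, 516 and 496 normalized CPM in the same order. LNCaP was again the library set apart, and the log2 ratio of LDHB was 0.87 (LN pair, 0.83 to 0.91) and -0.06 (2B pair, -0.10 to -0.02). Pseudogene entries of LDHA held 3.69% to 4.34% of the summed counts.

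SLC16A3 encodes MCT4, a lactate exporter induced by HIF, and varied more than any other member. It had 32 counts in LNCaP against 114 in LN-OlapR, and 7368 in C4-2B against 2876 in 2B-OlapR, or 1.19, 4.89, 360.1 and 139 normalized CPM. Both C4-2B lines were high and both LNCaP lines low. Within the 2B pair the resistant line was lower by a log2 ratio of -1.38 (-1.44 to -1.31), and within the LN pair it was higher by 2.02 (1.46 to 2.58), from a level near the minimum. Its exons overlap those of CSNK1D on the other strand, which had 5692, 6142, 3484 and 4452 counts in the same order, and the strand setting of the counting is not given in the sources used here. CSNK1D had its fewest counts in C4-2B and its most in LN-OlapR, and the part of the overlap in the SLC16A3 counts was not tested.

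SLC16A1, or MCT1, which carries lactate in either direction, was lower in both resistant lines. It had 138 normalized CPM in LNCaP against 111 in LN-OlapR, and 143 in C4-2B against 96.9 in 2B-OlapR, and log2 ratios of -0.31 (LN pair, -0.38 to -0.24) and -0.56 (2B pair, -0.64 to -0.48). SLC2A1, or GLUT1, the common glucose importer, had 51.2, 70.2, 94.2 and 84.4 normalized CPM, and log2 ratios of 0.46 (LN pair, 0.35 to 0.56) and -0.16 (2B pair, -0.25 to -0.07). SLC2A3, or GLUT3, had only 23, 50, 29 and 9 counts. Its log2 ratio in the LN pair was 1.31 (0.60 to 2.01), but pseudogene entries held 54.9% to 88.9% of the summed counts, so SLC2A3 is uncertain.

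**Figure D2:**
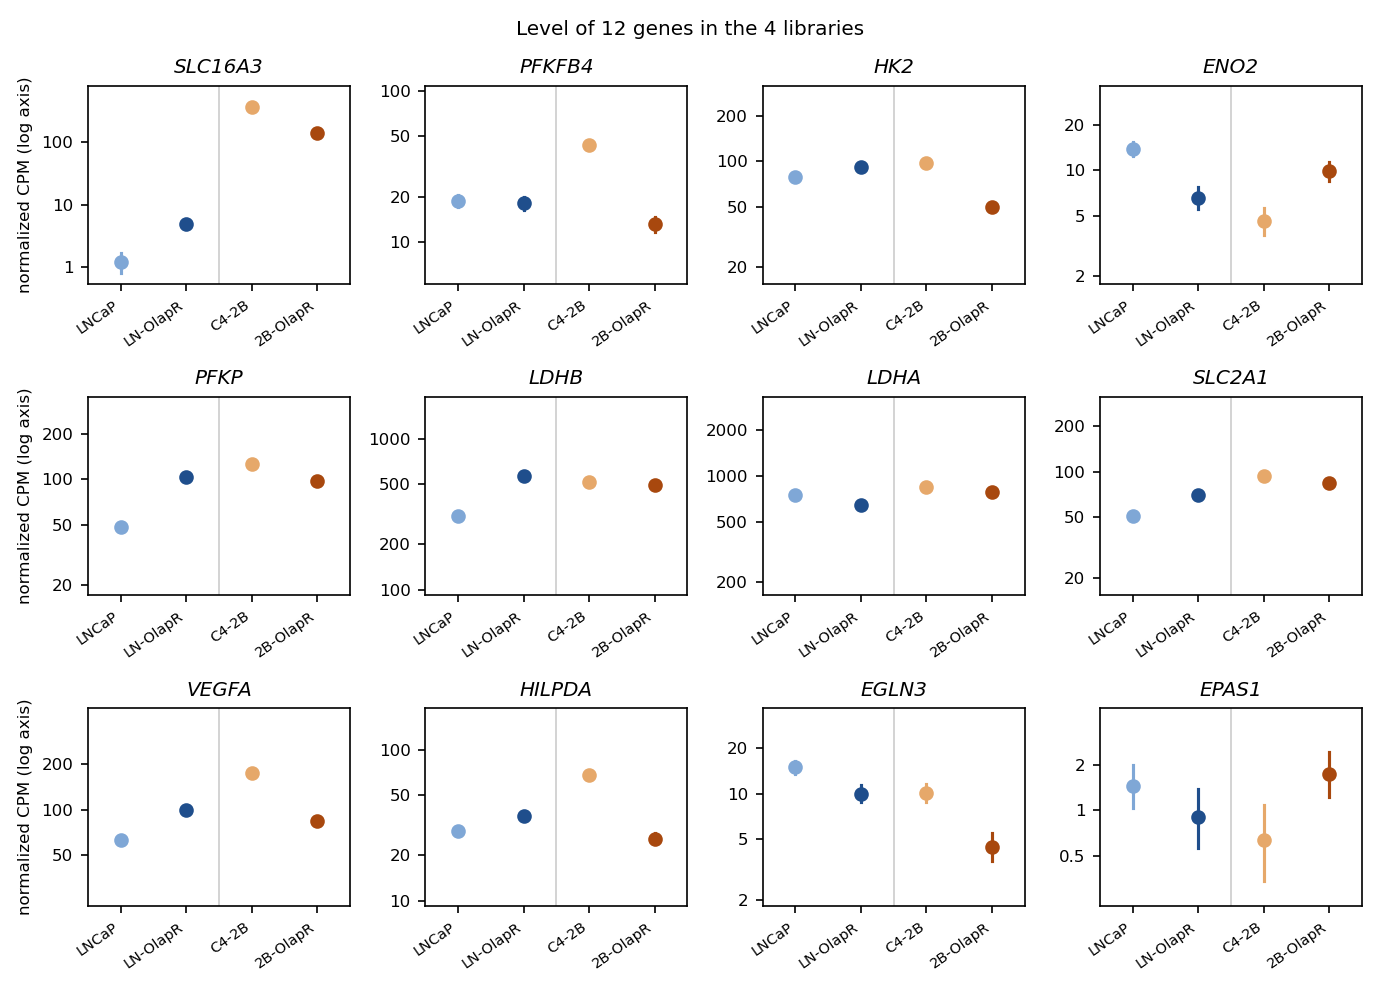
Normalized CPM (y axis, log scale, its own range in each panel) of 12 members in the 4 libraries (x axis). Points are single libraries and lines 95% Poisson intervals of the count. SLC16A3 separates both C4-2B lines from both LNCaP lines, while PFKFB4, VEGFA and HILPDA are highest in C4-2B alone.

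Within the HIF pathway, HIF1A, the main alpha subunit, had 124 normalized CPM in LNCaP against 93.4 in LN-OlapR, and 64.0 in C4-2B against 61.6 in 2B-OlapR. Its log2 ratio was -0.41 (LN pair, -0.48 to -0.33) and -0.06 (2B pair, -0.17 to 0.06). EPAS1, the other alpha subunit, was scarce, with 39, 21, 13 and 36 counts. The 2B ratio of 1.42 (0.52 to 2.32) and the LN ratio of -0.67 (-1.43 to 0.09) rest on these few counts.

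EGLN3, the oxygen-sensing hydroxylase that HIF itself induces, was lower in both resistant lines. It had 404 counts in LNCaP against 234 in LN-OlapR, and 207 in C4-2B against 93 in 2B-OlapR, with log2 ratios of -0.58 (LN pair, -0.81 to -0.35) and -1.17 (2B pair, -1.52 to -0.82). EGLN1, the main hydroxylase, had 45.8, 50.5, 60.9 and 61.1 normalized CPM and log2 ratios of 0.14 (LN pair) and 0.00 (2B pair). VHL, which marks the hydroxylated subunits for removal, was lower in LN-OlapR at -0.35 (-0.44 to -0.26), and its 2B ratio of -0.09 had an interval that held 0.

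Of the 7 HIF targets analyzed in the 2B pair, 6 were lower in 2B-OlapR and 5 had intervals below 0. VEGFA, the blood vessel growth factor, stood at 63.0 normalized CPM in LNCaP against 99.3 in LN-OlapR, and 174 in C4-2B against 83.9 in 2B-OlapR. C4-2B was high and 2B-OlapR lay between the LNCaP lines, with log2 ratios of -1.05 (2B pair, -1.14 to -0.97) and 0.66 (LN pair, 0.57 to 0.75). HILPDA, a lipid droplet protein, had 28.9, 36.6, 68.0 and 25.9 normalized CPM and log2 ratios of -1.39 (2B pair, -1.54 to -1.25) and 0.34 (LN pair, 0.20 to 0.48).

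ANKRD37, an ankyrin repeat gene widely used as a readout of HIF, had 107, 91, 227 and 114 counts in LNCaP, LN-OlapR, C4-2B and 2B-OlapR. Its log2 ratio in the 2B pair was -1.01 (-1.33 to -0.68), at the limit of 2-fold, and -0.03 (-0.43 to 0.37) in the LN pair. It overlaps UFSP2 on the other strand, which had 198 to 355 counts. BHLHE40, a transcriptional repressor, was lower in 2B-OlapR at -0.93 (-1.10 to -0.75) and stood at 0.03 in the LN pair.

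The collagen prolyl hydroxylase subunits parted in the 2B pair, with P4HA1 at -0.61 (-0.76 to -0.46) and P4HA2 at 0.04 (-0.17 to 0.24). In the LN pair both were higher, at 0.27 and 0.32. P4HA2 itself had 14.8, 18.5, 17.7 and 18.2 normalized CPM in LNCaP, LN-OlapR, C4-2B and 2B-OlapR. KDM3A, a histone demethylase, had a 2B ratio of -0.10 with an interval that held 0 and an LN ratio of 0.45. ADM, which encodes the vasodilator adrenomedullin, had 10, 4, 4 and 5 counts, too few for a comparison.

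Because isoenzymes of a family differ in regulation and kinetics, their shares were compared within each library by counts per kb of the longest coding transcript in GENCODE 29. The share of PFKFB4 among the 3 PFKFB genes was 22.5% in LNCaP against 23.3% in LN-OlapR, and 44.8% in C4-2B against 21.4% in 2B-OlapR, and that of HK2 among hexokinases 21.8%, 23.5%, 23.0% and 14.2%. PFKFB4 thus held its large share in C4-2B alone, and HK2 its small share in 2B-OlapR alone. PFKP made up 13.7% of phosphofructokinase in LNCaP against 23.4% in LN-OlapR, and 28.4% in C4-2B against 29.1% in 2B-OlapR. Which form leads depends on the length used. By the length of all exons joined, PFKFB4 held 39.7% in C4-2B, behind PFKFB3 at 40.6%. By that length PFKP held 37.2% in C4-2B and 38.0% in 2B-OlapR, the largest share there, where it was smallest by the longest coding transcript. The 95% exact binomial intervals of these shares were at most a few percentage points wide and cover counting error only.

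LDHB made up 39.4% of lactate dehydrogenase in LNCaP against 57.9% in LN-OlapR, and 49.0% in C4-2B against 49.7% in 2B-OlapR. Which form leads in the C4-2B lines depends on the transcript length, since the length of all exons joined gave 56.0% and 56.7% there and 46.3% and 64.6% in LNCaP and LN-OlapR. The change of the LDHB to LDHA count ratio, in which length cancels, was 1.08 (1.03 to 1.13) on the log2 scale in the LN pair and 0.04 (-0.01 to 0.09) in the 2B pair. SLC16A3 made up 0.775% of the SLC16A1 and SLC16A3 sum in LNCaP against 3.83% in LN-OlapR, and 69.5% in C4-2B against 56.5% in 2B-OlapR. By the length of all exons joined these last shares were 59.8% and 45.8%, and the leading form in 2B-OlapR thus also depends on the length. The minor forms ALDOC and ENO2 stayed at 1.70% to 4.07% and 0.233% to 0.916% of their families.

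**Figure D3:**
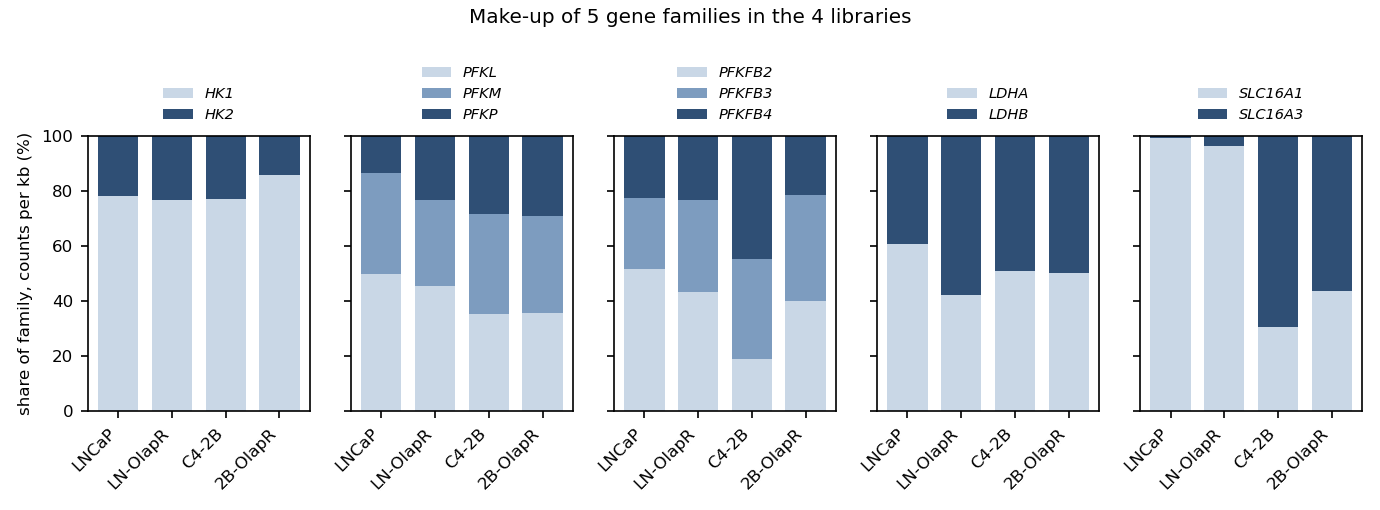
Share of each gene in its family by counts per kb (y axis, percent) in the 4 libraries (x axis), for hexokinases, phosphofructokinases, PFKFB enzymes, lactate dehydrogenases and lactate transporters. SLC16A3 holds 0.775% and 3.83% in the LNCaP lines against 69.5% and 56.5% in the C4-2B lines. By the length of all exons joined, the latter shares are 59.8% and 45.8%. PFKFB4 has its largest share in C4-2B, at 44.8%, or 39.7% by that length.

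The parental lines were compared to show where each resistant line started. Most members were higher in C4-2B than in LNCaP, with 28 of 36 higher, 8 lower (7571 of all 15580 genes were higher) and a median log2 ratio of 0.32, against -0.02 over all genes. At least 2-fold higher were 6 members, against 8% of all genes: SLC16A3 at 8.22 (7.72 to 8.72), which is 298-fold, ANKRD37 at 1.48, VEGFA at 1.47, PFKP at 1.39, HILPDA at 1.23 and PFKFB4 at 1.22. At least 2-fold lower were 3, ENO2 at -1.58, PFKFB2 at -1.23 and EPAS1 at -1.16, against 7.18% of all genes. All 7 HIF targets analyzed were higher in C4-2B, with a median of 0.47, while HIF1A was lower at -0.95 (-1.04 to -0.86). The 2 comparisons that use C4-2B, and the 2 that use LNCaP, share that library, so a high or low value there enters both.

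The resistant lines were then set against each other, and members lay on both sides of 0. Of 36 members analyzed, 15 were higher and 21 lower in 2B-OlapR than in LN-OlapR, with a median log2 ratio of -0.06 against -0.01 over all 15539 genes, and scaling by total counts split them 18 and 18. SLC16A3 was at least 2-fold higher at 4.82 (4.55 to 5.09), against 8.93% of all genes. SLC2A3, at -2.24 from 50 and 9 counts, and EGLN3, at -1.16 (-1.50 to -0.81), were at least 2-fold lower, against 9.45%. At 1.5-fold, 3 members were higher, against 17.8%, and 7 lower, against 20% of all genes.

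Further genes of the same pathways, which are not members, placed these differences beside their neighbours. Of 21 other HIF targets analyzed in the 2B pair, 15 were lower in 2B-OlapR and 11 had intervals below 0, with a median log2 ratio of -0.17, beside 7766 lower and 4785 below 0 among all 15527 genes. DDIT4, a stress-induced inhibitor of mTOR signalling, was lowest at -1.84 (-1.93 to -1.74), from 3703 counts in C4-2B to 1050 in 2B-OlapR, and KDM4B, a histone demethylase, highest at 0.75. In the LN pair 16 of 20 were higher, with a median of 0.23, beside 7625 higher of all 15373 genes. NDRG1, a stress-response gene that also answers to androgen, was highest at 1.40 (1.34 to 1.46), from 3311 to 7582 counts, and TMEM45A lowest at -1.06 from 73 to 30 counts.

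Of the other HIF pathway genes none reached 1.5-fold in the 2B pair, against 10.7% of all genes higher and 13.5% lower. Here 7 of 11 were higher, beside 7761 of all 15527 genes, with a median of 0.08. EGLN2 was highest at 0.37 and ARNT2 lowest at -0.44. In the LN pair 6 of 11 were lower, beside 7748 of all 15373 genes, with a median of -0.17. CITED2, which competes with HIF for its coactivators, was lowest at -1.34 (-1.46 to -1.23) and ELOB highest at 0.38. ARNT2, at -1.07 (-1.29 to -0.86), was also at least 2-fold lower, which made 2, against 4.83% of all genes. The 8 other glycolysis genes analyzed had medians of -0.00 (2B pair) and 0.14 (LN pair). LDHD, which acts on D-lactate, was their lowest in the 2B pair at -1.33 and BPGM their highest at 0.40. BPGM was also highest in the LN pair at 0.39, and ENO3, the muscle enolase, lowest at -0.49.

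Genes of pyruvate entry into mitochondria lay on both sides of 0 in each pair. MPC1, a subunit of the mitochondrial pyruvate carrier, was highest in the 2B pair at 0.87 (0.62 to 1.11), and PDK1, a HIF-induced kinase that shuts pyruvate dehydrogenase, lowest at -0.89 (-1.04 to -0.74). PDK1 had 956 counts in LNCaP against 1206 in LN-OlapR, and 1020 in C4-2B against 558 in 2B-OlapR, the lowest of the 4. In the LN pair DLAT, a core subunit of pyruvate dehydrogenase, was highest at 0.73 and PDHX, its binding component, lowest at -1.01 (-1.11 to -0.92). Over the 12 genes the medians were 0.04 (2B pair) and 0.08 (LN pair).

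Of 9 other glucose and monocarboxylate transporter genes, the 2B pair had 5 higher and 4 lower in the resistant line. Among all 15527 genes, 7761 were higher. SLC16A7, or MCT2, was lowest at -2.65 (-3.13 to -2.16), from 244 to 39 counts, and SLC2A6 highest at 0.75. In the LN pair 6 of 9 were higher, beside 7625 of all 15373 genes. SLC2A13 was highest at 0.96 from 39 to 66 counts and SLC16A7 lowest at -0.38. Among 3 gluconeogenesis genes analyzed, PCK2 was lowest at -1.08 (2B pair) and -0.23 (LN pair), G6PC3 highest at -0.09 in the 2B pair and PC highest at 0.10 in the LN pair. Of the genes of all these lists and the markers that passed the minimum in both pairs, only TMPRSS2, an androgen-induced luminal marker, was at least 2-fold different in the same direction in both, at 1.01 (2B pair) and 1.28 (LN pair).

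**Figure D4:**
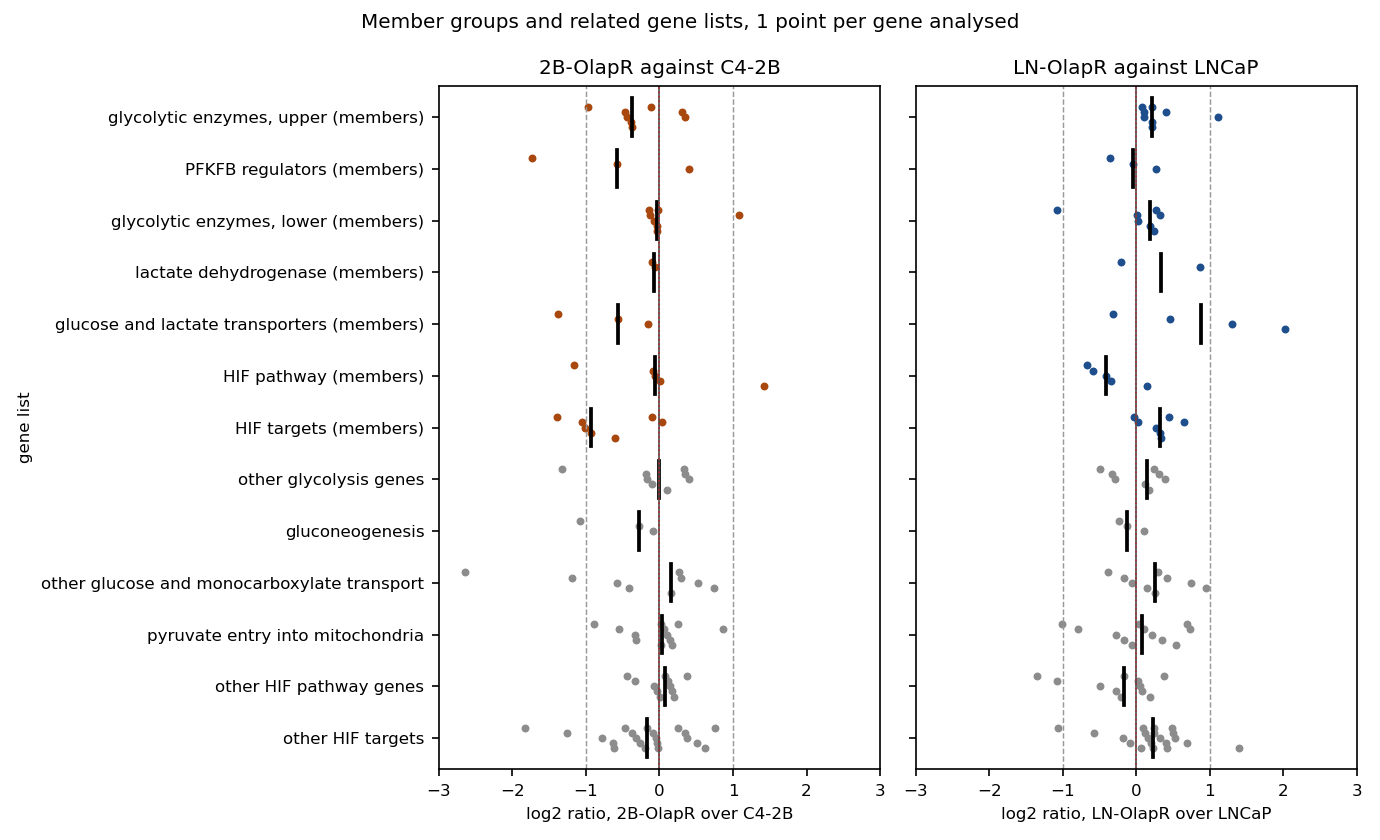
Log2 ratio (x axis) of each gene analyzed, by list (y axis), in 2B-OlapR against C4-2B, left, and LN-OlapR against LNCaP, right. Colored points are members that passed the minimum, gray points related genes, black bars list medians, dashed lines 2-fold and the dotted line the median of all genes. The HIF target members have medians of -0.93 and 0.32, and the other HIF targets -0.17 and 0.23.

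Summed over the 20 glycolysis genes, the share of all counts was 1.09% in LNCaP against 1.17% in LN-OlapR, and 1.36% in C4-2B against 1.29% in 2B-OlapR. The 8 HIF targets together had 195, 258, 376 and 204 normalized CPM in the same order, so the C4-2B library was high and 2B-OlapR close to LNCaP. Stromal, endothelial and blood genes were few, COL1A1 at 148 to 408 and VWF at 54 to 249 counts, and both were lower in each resistant line than in its parent. The other 4 markers of that list had no entry, and the part of these genes in the results was not tested.

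The only contrast with more than 1 library a side set both resistant lines against both parental lines, with the line background as a block and 1 residual degree of freedom. The edgeR quasi-likelihood test called 0 of 18087 genes (0%) after Benjamini-Hochberg adjustment, and 1420 had an unadjusted p under 0.05. None of the 36 members tested was called, and 2, EGLN3 and SLC16A1, had an unadjusted p under 0.05. EGLN3 had the lowest adjusted p by edgeR, 0.622, at a mean log2 difference of -0.87, followed by SLC16A1 at -0.44 with 0.634. DESeq2 called 173 of 16054 genes and 0 members. Both genes were lower in the resistant line of each pair, and with lines as the units this contrast measures the spread between the 2 backgrounds.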

How the data were processed

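RNA from the 4 lines was extracted with TRIzol, made into stranded mRNA libraries and sequenced, with 1 library per line. The authors deposited estimated counts per gene, not scaled between libraries, of which 46.2% were not whole. STAR, Partek and the build GRCh38 (hg38) are named in the submitters' processing notes, but which program made the estimates, with which annotation and strand setting, is not given in the sources used here. The rounded counts of each gene summed to at least 9 over the 4 libraries. The paper and the deposited description give different plating times.

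Counts were rounded to whole numbers and scaled by TMM in edgeR 4.0.16 (R 4.3.3). Log2 ratios used a pseudocount of 0.5 counts, the normal 95% interval came from the Poisson error of the 2 counts, and a mean of 1 normalized CPM over the pair was the minimum. With 1 library per line no replicate stands behind a ratio, and single pairs carry no p-value. The contrast over lines used edgeR's quasi-likelihood test with DESeq2 1.42.0 as the alternative. Python 3.11.15, numpy, pandas and SciPy served for the rest. Scripts were tested on simulated counts.

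Gene lengths and antisense overlaps came from GENCODE 29 and promoters from RefSeq (GRCh38.p14). Members were named with their groups. Given in every library were members at least 2-fold different in either resistant pair and the highest and lowest of each group, and of other lists the highest and lowest gene in each pair and any gene at least 2-fold different in both pairs. Further values, such as those of ALDOA, HIF1A and PDK1 in every library, were added for context after they were seen. The members and lists were chosen with earlier results of these data known. Alternatives were other scalings, another pseudocount, other minimum levels, pseudogene counts added, a fold of 1.5, no block and no filter. Results for 2 luminal markers are not reported here.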

Additional observations from a re-analysis of the deposited data

Results flagged for a closer look

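For 18 members the resistant line stood above its parent in 1 background and below it in the other, with both counting intervals clear of 0, as for 2374 (16.3%) of the 14602 genes analyzed in both pairs. Each pair is a single ratio, so this difference was not tested. The values below are the log2 ratio of LN-OlapR to LNCaP minus that of 2B-OlapR to C4-2B. Among the enzymes, this difference was 0.19 for HK1, 1.19 for HK2, 0.61 for PFKL, 0.55 for PFKM, 1.48 for PFKP, 0.86 for PFKFB3 and -0.77 for PFKFB2. In the lower stage it was 0.32 for TPI1, 0.15 for GAPDH, 0.40 for ENO1, 0.28 for PKM and -2.15 for ENO2, and for LDHB it was 0.93. Among transporters it was 0.61 for SLC2A1 and 3.397 for SLC16A3. Among HIF targets it was 1.71 for VEGFA, 0.88 for P4HA1 and 1.73 for HILPDA. SLC16A3 and ENO2 had the largest differences of these 18, and SLC16A3 rests on 32 counts in LNCaP. For HK1 and GAPDH the direction in the LN pair turned when the libraries were scaled by total counts. The count of 18 is that with TMM scaling, and some intervals ended close to 0. Members were more abundant than genes at large and had narrower intervals, so the 18 and the 16.3% are not like for like. In the 2B pair the intervals of PKM and LDHB ended at -0.01 and -0.02, and upper quartile scaling moved the median of all genes by 0.03. In the LN pair the intervals of GAPDH and PFKM began at 9.87e-05 and 0.04, and total counts moved that median by -0.08.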

How the results depend on the processing

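No replicate could be left out, since without any 1 library only a single pair remains and no residual degree of freedom is left. A minimum mean of 10 normalized CPM removed the scarce members, so that 0 members were at least 2-fold higher in the 2B pair, 1 in the LN pair, 1 at least 2-fold lower in C4-2B than LNCaP and 0 at least 2-fold lower in 2B-OlapR than LN-OlapR. With it the transporter median became 0.072 in the LN pair and 0.27 between the resistant lines, and the HIF pathway median -0.31 between the parental lines. Without a minimum the transporter median of the 2B pair was -0.97 and 2 members were at least 2-fold lower in the LN pair. With pseudogene counts added, the transporter median between the parental lines was 1.28, and 1 member was at least 2-fold lower in 2B-OlapR than LN-OlapR. A fold of 1.5 gave 5 higher and 2 lower members in the LN pair, 10 higher between the parental lines, and 3 higher and 7 lower between the resistant lines. By scaling, the 2B pair had 5 to 7 members lower by at least 2-fold. Total counts turned the direction of 4 members in the LN pair and 2 in the 2B pair, all with log2 ratios near 0. No scaling moved the median of all genes by as much as 0.1.

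The contrast over lines without the block for line background called 0 genes and 0 members by edgeR (452 genes at an unadjusted p under 0.05). With the block, DESeq2 called 0 members. Depth limits EPAS1, SLC2A3 and ADM, with 4 to 50 counts.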
